A study of Mus musculus with 24 samples.

Results

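The SLAM family receptors examined here are 6 genes, Cd84, Slamf7, Slamf8, Slamf9, Ly9 and Cd48, of 25160 genes in a table of RNA sequencing counts from mouse macrophages. They were taken by name, and the family was chosen by the level of Cd84, which is among the most lowered genes of a macrophage line labelled for Nur77, the nuclear receptor encoded by Nr4a1. The measurements come from the line RAW 264.7, which grows from a virus-transformed mouse tumour and is used as a macrophage model. A stable derivative labelled as carrying doxycycline-inducible Nur77 (the Nur77 line) was compared with a stable derivative labelled as carrying doxycycline-inducible GFP (the GFP line). All groups, the GFP line included, received 50 ng/ml doxycycline for 18 h and then 500 ng/ml lipopolysaccharide (LPS, a bacterial activator of Toll-like receptor 4) for 0, 1 or 5 h. The 6 groups of line and time held 4 libraries each, 24 in all. Each construct was present in 1 stable line, so an effect of the Nur77 construct and another difference between the lines cannot be told apart. The labels do not say that replicates were separate cultures, so p-values reflect spread between libraries that may be technical only.

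SLAM family receptors are immunoglobulin-like surface proteins of leukocytes, related to CD2, and most of them bind a copy of themselves on a neighbouring cell. The cytoplasmic tails of CD84, SLAMF7 and LY9 carry tyrosine switch motifs. Motifs of this kind recruit the small adaptors SAP or EAT-2, Src family kinases and phosphatases, and which adaptor each receptor takes was not examined here. CD48 has no tail: it is held in the membrane by a lipid anchor and is a ligand of CD244 and CD2. SLAMF8 and SLAMF9 have short tails without switch motifs. In mouse macrophages, SLAMF7 has been reported to act in phagocytosis with the integrin Mac-1, and SLAMF8 to restrain the NADPH oxidase.

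All 6 genes lie on mouse chromosome 1. On the build GRCm38.p6, Ly9 spans chr1:171588613-171607410, Slamf7 chr1:171632403-171653037, Cd48 chr1:171681245-171705258, Cd84 chr1:171839697-171890718, Slamf9 chr1:172458569-172478421 and Slamf8 chr1:172581377-172590873. RefSeq promoter windows of 300 bases, from 250 bases before to 50 after a transcript start, were matched for Slamf7, Cd48, Cd84, Slamf9 and Slamf8. The starts of the Slamf7, Cd48, Slamf8 and Slamf9 windows belong to transcripts that begin inside the gene spans just given. The 4 windows printed below belong to the member that was far lower in the Nur77 line and to the 3 with the largest changes in the other direction.

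They lie at chr1:171839447-171839746 on the plus strand for Cd84, at chr1:171681742-171682041 on the plus strand for Cd48, at chr1:172590519-172590818 on the minus strand for Slamf8 and at chr1:172475110-172475409 on the plus strand for Slamf9. Each is written 5′ to 3′ along the gene's strand, and capitals mark motif matches.
Cd84: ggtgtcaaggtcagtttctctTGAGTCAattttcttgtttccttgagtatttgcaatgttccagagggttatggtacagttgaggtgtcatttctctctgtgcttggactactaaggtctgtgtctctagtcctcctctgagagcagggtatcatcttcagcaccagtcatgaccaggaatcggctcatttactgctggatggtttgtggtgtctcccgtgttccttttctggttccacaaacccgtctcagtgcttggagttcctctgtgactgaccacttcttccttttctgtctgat
Cd48: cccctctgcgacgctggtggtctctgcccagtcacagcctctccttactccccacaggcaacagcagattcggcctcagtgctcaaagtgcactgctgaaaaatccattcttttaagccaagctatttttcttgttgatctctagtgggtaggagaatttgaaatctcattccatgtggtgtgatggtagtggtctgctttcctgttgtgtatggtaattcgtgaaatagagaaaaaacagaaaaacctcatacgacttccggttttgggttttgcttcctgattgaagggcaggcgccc
Slamf8: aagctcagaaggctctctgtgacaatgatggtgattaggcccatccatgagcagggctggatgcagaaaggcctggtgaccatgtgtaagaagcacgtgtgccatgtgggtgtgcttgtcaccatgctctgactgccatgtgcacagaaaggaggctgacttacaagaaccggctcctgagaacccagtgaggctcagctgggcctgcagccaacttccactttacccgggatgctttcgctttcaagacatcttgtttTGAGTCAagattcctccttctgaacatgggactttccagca
Slamf9: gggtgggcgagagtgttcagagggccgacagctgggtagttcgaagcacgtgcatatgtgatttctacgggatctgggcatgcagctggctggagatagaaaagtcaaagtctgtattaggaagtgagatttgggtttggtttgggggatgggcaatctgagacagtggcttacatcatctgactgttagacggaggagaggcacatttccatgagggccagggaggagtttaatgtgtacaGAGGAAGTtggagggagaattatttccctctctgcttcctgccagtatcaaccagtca

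Motifs of 3 kinds were searched on both strands: AAAGGTCA, the element bound by NR4A receptors; TGANTCA, the element of AP-1 (Fos and Jun factors), whose reverse complement is the same motif; and GAGGAAGT, an element of the macrophage factor PU.1. TGANTCA was found in the windows of Cd84 (first base at position -229 from the start), Slamf7 (-42) and Slamf8 (10 bases into the transcript), and 7.81% of 32851 promoter windows in the RefSeq table hold it. GAGGAAGT was found in the Slamf9 window at -8, and 3.2% of windows hold it. AAAGGTCA was found in none of the 5 windows and is in 1.51% of all. None of the 3 motifs was in the Cd48 window. These matches describe the letters of the windows and not binding.

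Library depth, summed over genes, was 8134143 to 29275847 counts. Levels are CPM, the counts of a gene scaled to 1e+06 counts per library after TMM adjustment of library sizes, given as mean ± SD. After removal of genes with low counts, 12198 genes were tested with edgeR's quasi-likelihood test. Fold changes are on the log2 scale with their standard error (SE), and a gene was called at a Benjamini-Hochberg adjusted p under 0.05. Of the 6 members, 5 passed the filter and Slamf7 did not. The library of replicate 2 of the Nur77 line at 1 h stood apart from its group on the first principal component (11.7, against -11.4 to -10.2 in the other 3). Comparisons of the members and of some further genes at 1 h are also given without it. At 0 h, Nr4a1 averaged 3.27 ± 0.403 CPM in the Nur77 line and 3.03 ± 0.39 CPM in the GFP line (SD, n = 4 each), with overlapping ranges. At 1 h Nr4a1 was lower in the line labelled Nur77, at 32.9 ± 15.8 CPM (9.29 to 42.4, lowest in the library that stood apart) against 61.7 ± 6.64 CPM (52.0 to 66.8) in the GFP line. At 5 h it averaged 4.89 ± 0.322 CPM in the Nur77 line and 2.85 ± 0.517 CPM in the GFP line. The counts of Nr4a1 at 0 h and 1 h thus do not show the higher level that the label of the Nur77 line names, and whether transcripts of the construct are counted under Nr4a1 was not tested. The lines are called by their labels throughout, and each direction below is that of the line so labelled.

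All 8 macrophage markers looked for reached 1 CPM in every group, but their summed level was 5020 to 5230 CPM in the Nur77 line and 9370 to 9460 CPM in the GFP line at 0 h, with Lyz2, the gene of lysozyme, the largest term in each. The sums were 4310 to 5390 CPM in the Nur77 line and 8990 to 10000 CPM in the GFP line at 1 h, and 4870 to 5160 CPM in the Nur77 line and 8640 to 9180 CPM in the GFP line at 5 h. The part of this difference in the SLAM family results was not tested. Markers of lymphocytes, the other main carriers of these receptors, were nearly absent: Cd3e, Cd3g, Cd8a, Ncr1 and Klrb1c were at 0 in all groups, as was the B cell gene Ms4a1. Lck, a Src family kinase best known from T cells, was the only one of 7 measured T and NK cell markers above 1 CPM, with group means of 5.75 to 16.3 CPM. The 6 B and plasma cell markers summed to at most 0.52 CPM in any library, the 5 dendritic cell markers to at most 4.32 CPM, the 5 mast cell markers to at most 0.297 CPM and the 5 fibroblast markers to at most 0.723 CPM. In RNA from bulk cultures, fewer cells that express a gene and less RNA of that gene per cell cannot be told apart.

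The make-up of SLAM family transcripts differed between the lines. Cd84 was almost absent from the Nur77 line, whereas Cd48, Slamf8, Slamf9 and Ly9 were all higher than in the GFP line at 0, 1 and 5 h of LPS. At 0 h the 4 members tested between the lines were called higher, against a background in which 20.3% of the 12198 genes were called higher. The same 4 were called higher at 1 h, where 26.4% of all genes were, and at 5 h, where 22% were. The sizes ranged widely, with ratios of mean CPM at 0 h of 8.14 for Slamf8, 5.95 for Cd48, 1.65 for Slamf9 and 1.15 for Ly9. At 0 h, 45 of the 12198 tested genes had a larger log2 fold change than Slamf8, 69 than Cd48, 568 than Slamf9 and 3299 than Ly9.

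**Figure D1:**
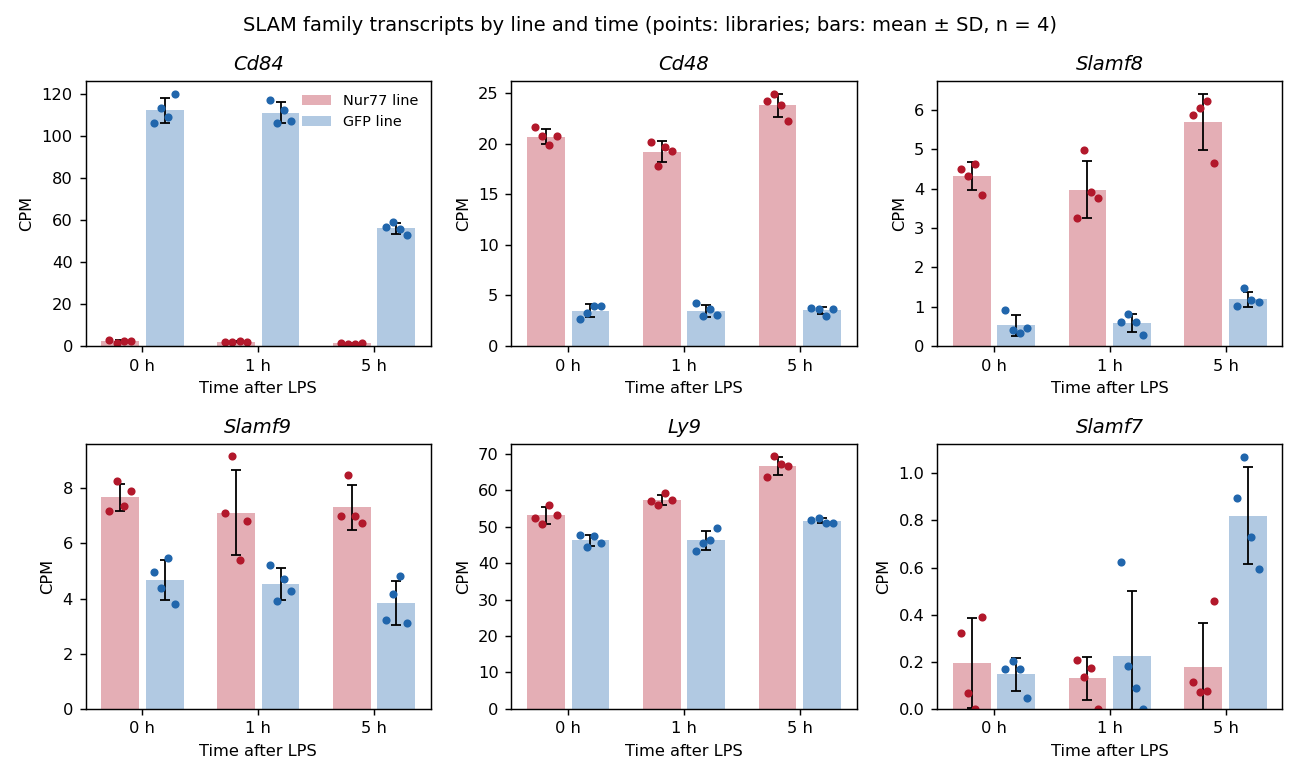
CPM of each of the 6 members in the Nur77 line (red) and the GFP line (blue) after 0, 1 and 5 h of LPS; points are libraries, bars are means and error bars are SD (n = 4). Cd84 lies at 1.01 to 2.74 CPM in the Nur77 line and at 52.7 to 120 CPM in the GFP line, and Cd48 and Slamf8 are higher in every Nur77 library than in any GFP library.

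Cd84 encodes a homophilic receptor of myeloid and lymphoid cells and is the member for which the family was picked, so its difference between the lines is described here with no test. At 0 h it had 2.74, 1.51, 2.50 and 2.20 CPM in the 4 Nur77 libraries and 106, 113, 109 and 120 CPM in the 4 GFP libraries. At 1 h it had 2.08, 1.89, 2.44 and 1.79 CPM in Nur77 libraries and 117, 106, 112 and 107 CPM in GFP libraries. At 5 h the values were 1.58, 1.01, 1.19 and 1.46 CPM in the Nur77 line and 56.6, 58.8, 55.6 and 52.7 CPM in the GFP line. The ranges of the lines were far apart at each time, and no Nur77 library came near a GFP library.

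The log2 fold change of Cd84 was -5.65 at 0 h, -5.71 at 1 h and -5.37 at 5 h. In mean CPM the GFP line stood 50.0 times above the Nur77 line at 0 h, 53.9 times at 1 h and 42.7 times at 5 h. Among 9095 genes with at least 10 CPM in the higher line at 0 h, Cd84 had rank 4 from the lowest log2 fold change. Just ahead of it were Mmp12, macrophage elastase, at -6.81 and Cpe, carboxypeptidase E, at -5.68; just behind were Layn, layilin, at -5.47 and Dio2, a thyroid hormone deiodinase, at -4.91. Over all tested genes, 12 had a lower fold change than Cd84 at 0 h, 6 at 1 h and 10 at 5 h. Without replicate 2 of the Nur77 line at 1 h, its log2 fold change at that time was -5.67.

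Cd48, which encodes the lipid-anchored ligand, was several-fold higher in the Nur77 line. At 0 h it had 21.6, 20.8, 19.9 and 20.8 CPM in Nur77 libraries and 2.70, 3.28, 4.00 and 3.97 CPM in GFP libraries. At 1 h it had 20.2, 17.8, 19.7 and 19.3 CPM in the Nur77 line and 4.23, 2.96, 3.66 and 3.03 CPM in the GFP line. At 5 h it had 24.2, 24.9, 23.8 and 22.2 CPM in the Nur77 line and 3.80, 3.65, 3.00 and 3.71 CPM in the GFP line. Every Nur77 library was above every GFP library, whatever the time. The log2 fold change was 2.53 (SE 0.11, adjusted p = 6.37e-16) at 0 h, 2.52 (SE 0.11, adjusted p = 1.49e-15) at 1 h and 2.76 (SE 0.11, adjusted p = 7.25e-17) at 5 h. Without the library that stood apart, it was 2.57 at 1 h.

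Slamf8, a short-tailed receptor, was low in both lines and had the largest ratio of the members that were higher in the Nur77 line at 0 h and 1 h. At 0 h it had 4.51, 4.33, 4.64 and 3.83 CPM in Nur77 libraries and 0.929, 0.410, 0.337 and 0.452 CPM in GFP libraries. These values rest on 256 counts in all in the Nur77 line and 35 in the GFP line. At 1 h it had 3.25, 4.98, 3.92 and 3.77 CPM in the Nur77 line and 0.622, 0.819, 0.610 and 0.280 CPM in the GFP line. At 5 h it had 5.87, 6.05, 6.24 and 4.65 CPM in the Nur77 line and 1.01, 1.47, 1.18 and 1.11 CPM in the GFP line. The lines did not overlap at any time. Its log2 fold change was 3.12 (SE 0.25, adjusted p = 1.65e-10) at 0 h, 2.74 (SE 0.25, adjusted p = 2.16e-09) at 1 h and 2.24 (SE 0.20, adjusted p = 1.59e-09) at 5 h, and 2.61 at 1 h without the library that stood apart.

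Slamf9, the other short-tailed receptor, was moderately higher. At 0 h it had 7.17, 8.25, 7.37 and 7.91 CPM in Nur77 libraries and 4.98, 4.38, 5.47 and 3.79 CPM in GFP libraries. At 1 h it had 7.12, 9.16, 5.40 and 6.82 CPM in the Nur77 line and 5.23, 3.91, 4.70 and 4.26 CPM in the GFP line. At 5 h it had 7.0, 8.5, 6.98 and 6.74 CPM in the Nur77 line and 3.24, 4.18, 4.82 and 3.12 CPM in the GFP line. The ranges of the lines did not overlap at any of the times, though the lowest Nur77 library at 1 h was close to the highest GFP library. The log2 fold change was 0.72 (SE 0.16, adjusted p = 0.00058) at 0 h, 0.67 (SE 0.16, adjusted p = 0.00121) at 1 h and 0.91 (SE 0.16, adjusted p = 4.08e-05) at 5 h. Without the library that stood apart, which held the highest Slamf9 value of its group, it was 0.54 at 1 h (adjusted p = 0.00558).

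Ly9, a homophilic receptor also called CD229, was abundant in both lines and differed least. At 0 h it had 52.3, 50.7, 56.0 and 53.2 CPM in Nur77 libraries and 47.6, 44.5, 47.5 and 45.5 CPM in GFP libraries. After 1 h it had 57.0, 56.0, 59.2 and 57.2 CPM in the Nur77 line and 43.4, 45.5, 46.2 and 49.5 CPM in the GFP line. At 5 h it had 63.5, 69.3, 67.3 and 66.7 CPM in the Nur77 line and 51.9, 52.4, 51.1 and 51.1 CPM in the GFP line. The ranges did not overlap at any time, so a small difference was larger than the spread between libraries. The log2 fold change was 0.20 (SE 0.05, adjusted p = 0.0031) at 0 h, 0.31 (SE 0.05, adjusted p = 2.05e-05) at 1 h and 0.37 (SE 0.05, adjusted p = 1.47e-06) at 5 h, and 0.32 at 1 h without the library that stood apart.

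Slamf7, the receptor reported to work with Mac-1, was near the detection limit except after 5 h of LPS in the GFP line. At 5 h it had 0.113, 0.0721, 0.0743 and 0.456 CPM in the Nur77 line and 0.894, 1.07, 0.728 and 0.594 CPM in the GFP line, and the ranges did not overlap. At 0 h it had 0.322, 0.0688, 0 and 0.389 CPM in the Nur77 line and 0.169, 0.205, 0.168 and 0.0452 CPM in the GFP line. At 1 h it had 0.208, 0.135, 0.174 and 0 CPM in the Nur77 line and 0.622, 0.182, 0.0871 and 0 CPM in the GFP line. Over 4 libraries it had 10 counts in the Nur77 line and 64 counts in the GFP line at 5 h, and 10 or 11 in each of the other groups. In a fit with no filter, over 17792 genes, 5 h libraries of the Nur77 line were lower than those of the GFP line, at -2.34 on the log2 scale (SE 0.64, adjusted p = 0.00447). The same fit gave 0.41 at 0 h (adjusted p = 0.812) and -0.23 at 1 h (adjusted p = 0.93).

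To compare the members with each other, CPM was divided by the length of the transcript in kilobases. At 0 h the order of mean levels in the Nur77 line was Ly9 at 21.4, Cd48 at 17.5, Slamf9 at 5.85, Slamf8 at 2.61, Cd84 at 0.68 and Slamf7 at 0.0491 CPM per kb. In the GFP line it was Cd84 at 34.0, Ly9 at 18.7, Slamf9 at 3.55, Cd48 at 2.94, Slamf8 at 0.321 and Slamf7 at 0.037 CPM per kb. Cd84 was thus lowest but for Slamf7 in the Nur77 line and highest in the GFP line. As a share of the summed level of the 6 members at 0 h, Cd84 made up 1.41 ± 0.323% in the Nur77 line and 57.1 ± 2.16% in the GFP line, while Cd48 made up 36.4 ± 1.34% in the Nur77 line and 4.93 ± 0.776% in the GFP line (SD, n = 4 each). The sum itself was closer between the lines, at 48.1 ± 0.537 CPM per kb in the Nur77 line and 59.6 ± 1.43 CPM per kb in the GFP line at 0 h. After 5 h of LPS the order of the sums was turned round, at 56.4 ± 2.26 CPM per kb in the Nur77 line and 44.6 ± 1.43 CPM per kb in the GFP line. The length taken for Cd84 was 3291 bases. A Cd84 transcript of 1503 bases had nearly the same counts, at 1248 against 1252.5 in replicate 1 of the GFP line at 0 h. The shorter length would raise the Cd84 level, mostly in the GFP line. The shares, the closeness of the sums at 0 h and their order at 5 h thus depend on the length taken.

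**Figure D2:**
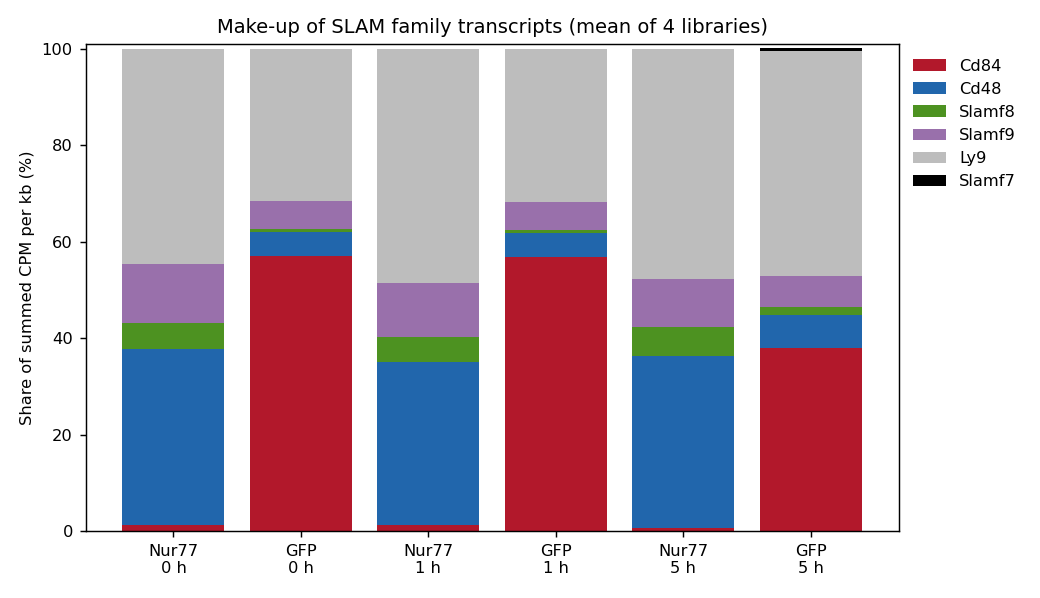
Share of each member (%) in the summed CPM per kb of the 6 members, as means of 4 libraries, for the Nur77 line and the GFP line at 0, 1 and 5 h of LPS. Cd84 takes 0.71 to 1.41% in Nur77 groups and 38.1 to 57.1% in GFP groups, and Cd48 takes 33.9 to 36.4% in Nur77 groups and 4.93 to 6.69% in GFP groups. These shares rest on a length of 3291 bases for Cd84.

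Calls between LPS and 0 h were made at 5 h and not at 1 h, and they were of Ly9 and Slamf8. At 1 h against 0 h, none of the 4 members tested (Cd48, Slamf8, Slamf9 and Ly9) was called in either line, where 44.4% of all genes were called in the Nur77 line and 17.4% in the GFP line. At an unadjusted p under 0.05 Ly9 alone passed, in the Nur77 line, and the DESeq2 Wald test called none. Without replicate 2 of the Nur77 line at 1 h, none was called either. Their adjusted p-values at 1 h were between 0.0753 and 0.589 in the Nur77 line and between 0.717 and 0.996 in the GFP line. At 5 h against 0 h, Ly9 and Slamf8 were called higher in both lines, where 32.5% of all genes were called higher in the Nur77 line and 30.6% in the GFP line.

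Cd84 was at -0.73 on the log2 scale in the Nur77 line at 5 h against 0 h (SE 0.17) and at -1.0 in the GFP line (SE 0.08). These are descriptions with no test, since the 0 h libraries are among those for which Cd84 was picked. In the Nur77 line it averaged 1.31 ± 0.258 CPM at 5 h and 2.24 ± 0.531 CPM at 0 h, with ranges that overlapped, and in the GFP line 55.9 ± 2.54 CPM at 5 h and 112 ± 6.04 CPM at 0 h, with ranges that did not (SD, n = 4 each). The difference between the lines in the 5 h response was 0.28 on the log2 scale. The mean at 5 h was 0.499 of that at 0 h in the GFP line.

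In the Nur77 line Ly9 was higher at 5 h than at 0 h, by 0.33 on the log2 scale (SE 0.05, adjusted p = 3.6e-06), at 66.7 ± 2.41 CPM against 53.1 ± 2.24 CPM at 0 h. In the GFP line it rose by 0.16 (SE 0.05, adjusted p = 0.00919), to 51.6 ± 0.654 CPM against 46.3 ± 1.52 CPM at 0 h (SD, n = 4 each). The 5 h libraries were above the 0 h libraries in both lines with no overlap. Its 5 h response differed between the lines by 0.17 (95% CI 0.02 to 0.32), which was not called (adjusted p = 0.162). At 1 h in the Nur77 line its change was 0.11 (adjusted p = 0.0753), and it was called without replicate 3 of the Nur77 line at 0 h (0.15, adjusted p = 0.0368).

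In the Nur77 line Slamf8 was higher at 5 h than at 0 h by 0.40 (95% CI 0.04 to 0.77, adjusted p = 0.0496), at 5.7 ± 0.719 CPM against 4.33 ± 0.357 CPM at 0 h. In the GFP line it rose by 1.28 (SE 0.29, adjusted p = 0.000387), to 1.19 ± 0.198 CPM against 0.532 ± 0.269 CPM at 0 h (SD, n = 4 each), and the ranges did not overlap. The Nur77 line call sat at the threshold and was lost under 9 of 16 other settings, with adjusted p-values up to 0.127: without any 1 of the 4 Nur77 libraries at 0 h, without replicate 1, 2 or 3 at 5 h, and with either other filter on low counts. The response at 5 h differed, as Nur77 line minus GFP line, by -0.88 (95% CI -1.58 to -0.18), a difference that was not called (adjusted p = 0.122). Without replicate 1 of the GFP line at 0 h, the library with the highest Slamf8 value of its group, it was -1.18 and was called (adjusted p = 0.0346).

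Cd48 in the Nur77 line had its highest values after 5 h of LPS, 23.8 ± 1.14 CPM against 20.7 ± 0.708 CPM at 0 h (SD, n = 4 each), with no overlap of the ranges. Its log2 fold change of 0.20 (95% CI 0.01 to 0.39) missed the threshold (adjusted p = 0.0559) and passed it under 5 other settings, with adjusted p-values of 0.0123 to 0.046, among them those without replicate 2 of the Nur77 line at 1 h and without its replicate 4 at 5 h. In the GFP line Cd48 changed by -0.02 (adjusted p = 0.887). Slamf9 was not called in either line, at -0.07 in the Nur77 line (adjusted p = 0.684) and -0.26 in the GFP line (adjusted p = 0.178). Slamf7, in the fit with no filter, was at -0.23 in the Nur77 line (adjusted p = 0.928) and rose in the GFP line by 2.52 (SE 0.63, adjusted p = 0.00125), but the difference between the lines of -2.75 was not called (adjusted p = 0.17). Of the 4 members whose LPS responses were compared between lines, 0 were called, where 1.13% of all genes were called at 1 h and 7.88% at 5 h. At an unadjusted p under 0.05, 0 passed at 1 h and 2, Slamf8 and Ly9, at 5 h, and the DESeq2 Wald test called 0 at either time.

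**Figure D3:**
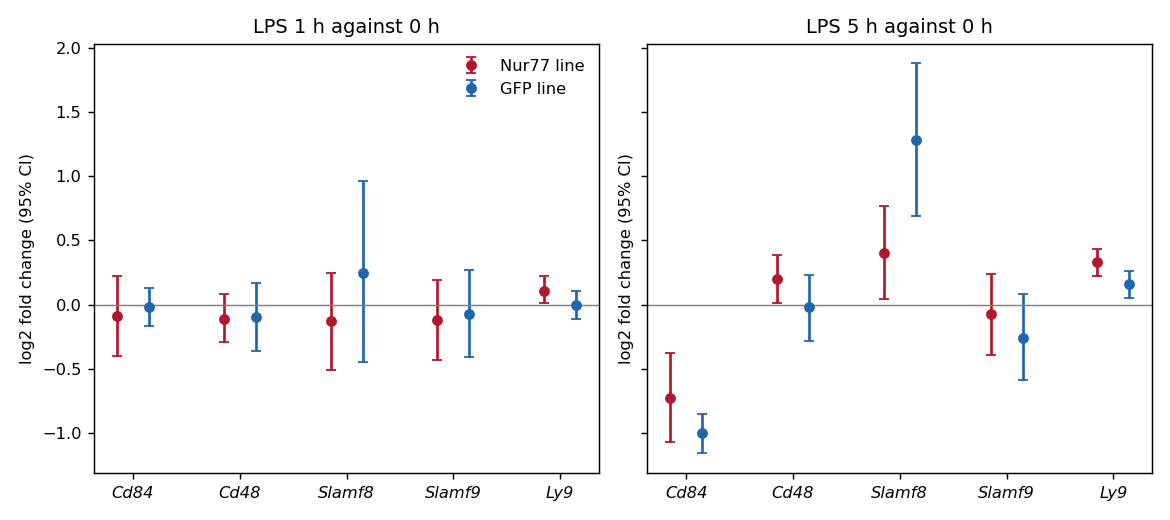
Log2 fold change of the 5 members that passed the filter after 1 h (left) and 5 h (right) of LPS against 0 h, in the Nur77 line (red) and the GFP line (blue); error bars are 95% confidence intervals. At 5 h Ly9 and Slamf8 are above 0 in both lines, and Slamf8 stands at 0.40 in the Nur77 line and 1.28 in the GFP line. Cd84 stands at -0.73 in the Nur77 line and -1.0 in the GFP line at 5 h. Its intervals are not to be read as a test, since the 0 h libraries are among those for which it was picked.

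A further 4 genes of the family or its ligands were looked at, and none passed the filter. Slamf1 and Slamf6, which encode the receptors SLAM and Ly108, had 0 to 3 counts in every group. Cd244a, the gene of the CD48 receptor, had 11, 37 and 7 counts in the Nur77 line at 0, 1 and 5 h, each over 4 libraries, and 12, 6 and 5 counts in the GFP line. In the fit with no filter it was higher in the Nur77 line at 1 h, by 2.22 on the log2 scale (SE 0.70, adjusted p = 0.0118), and was not called at 0 h or 5 h. Its values at 1 h were 0.749, 0.539, 0.436 and 0.0897 CPM in the Nur77 line and 0, 0.182, 0.0871 and 0.056 CPM in the GFP line, and 1 Nur77 library lay within the GFP range. Cd2, the other CD48 partner, was at 0 in all 12 Nur77 libraries and had sums of 28.5, 17.0 and 4.0 estimated counts in the GFP line at 0, 1 and 5 h. Set against a floor of 3 counts per group in the Nur77 line, Cd2 in the GFP line stood 7.46-fold higher at 0 h, 7.16-fold at 1 h and 1.14-fold at 5 h. These ratios leave out the sampling error of the GFP counts. In the fit with no filter, Cd2 was called lower in the Nur77 line at 0 h (adjusted p = 0.00056) and 1 h (adjusted p = 0.000606). It was not called at 5 h (adjusted p = 0.127).

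Genes of the proteins that signal below these receptors moved in both directions. Of 15 adaptors, kinases and phosphatases of SLAM tails, 12 were tested, of which the Nur77 line had 5 called higher and 2 lower at 0 h, 6 and 3 at 1 h, and 5 and 5 at 5 h. The 6 at 1 h became 2 in a fit of the compared groups alone. Their median log2 fold change was 0.09, 0.14 and 0.04 at these times, beside 0.02, 0.01 and 0.00 for all genes. Of all genes, 20.3% were called higher and 19.7% lower at 0 h, 26.4% and 24.8% at 1 h, and 22% and 24.4% at 5 h. Src, the founding Src family kinase, fell, with 4.11 ± 0.931 CPM in the Nur77 line and 13.4 ± 0.988 CPM in the GFP line at 0 h (SD, n = 4 each). Its log2 fold change was -1.70 at 0 h (SE 0.18, adjusted p = 3.07e-08), -1.28 at 1 h and -2.46 at 5 h. Ptpn6, which encodes the phosphatase SHP-1, was higher by 0.49 at 0 h (SE 0.07, adjusted p = 1.91e-06) and 0.62 at 1 h, and stood at 0.12 at 5 h (adjusted p = 0.134). Without the library that stood apart, the 1 h values were -1.1 for Src and 0.56 for Ptpn6.

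Partners of SLAMF7 in phagocytosis were mostly lower. Of 5 genes of activating adaptors and Mac-1, all tested, 4 were called lower and 0 higher at 0 h, 3 lower and 1 higher at 1 h, and 3 lower and 0 higher at 5 h, where 19.7%, 24.8% and 24.4% of all genes were called lower at these times. The 1 called higher at 1 h was Itgam, the alpha chain of Mac-1, at 0.38. Itgam was at -0.03 at 0 h and 0.24 at 5 h, neither called. Fcer1g was at -0.30, -0.08 and -0.05 at 0, 1 and 5 h and was called at 0 h alone. The Itgam call was lost under 6 of 15 other settings, among them those without replicate 2 of the Nur77 line or replicate 2, 3 or 4 of the GFP line at 1 h. At 5 h, 1 was higher without replicate 2 of the Nur77 line at 1 h. The medians of the 5 were -0.36, -0.36 and -0.28. Syk, the kinase that docks on phosphorylated adaptors, had 86.5 ± 2.34 CPM in the Nur77 line and 140 ± 11.2 CPM in the GFP line at 0 h (SD, n = 4 each). Its log2 fold change was -0.69 at 0 h (SE 0.07, adjusted p = 3.75e-09), -0.95 at 1 h and -1.29 at 5 h. Itgb2, the beta chain of Mac-1, was at -0.48, -0.36 and -0.52, and Tyrobp, the adaptor DAP12, at -0.36, -0.37 and -0.28, with all 6 values called. The NADPH oxidase, which SLAMF8 has been reported to restrain, and the class III PI3-kinase complex were taken as 1 list. Of their 11 genes, all tested, 1 was higher and 2 lower at 0 h, 0 and 2 at 1 h, and 2 and 2 at 5 h, with medians between -0.03 and 0.01. These counts are near or below the shares of all genes just given. The 2 lower at 5 h became 4 without replicate 2 of the Nur77 line at 1 h and 5 in a fit of the compared groups alone, and the 0 higher at 1 h became 1 without replicate 2 or replicate 4 of the Nur77 line at 1 h. Cyba, the small membrane subunit of the oxidase, was lower at each time, at -0.50, -0.66 and -0.63. Rubcn, an inhibitor of the PI3-kinase complex, was lower at 0 h (-0.37) and 1 h (-0.47), and Uvrag, a subunit of the complex, was higher at 0 h (0.25) and 5 h (0.19). Without the library that stood apart, the 1 h values were -0.9 for Syk, -0.43 for Itgb2 and -0.31 for Tyrobp. Those of Cyba and Rubcn were -0.61 and -0.51. The macrophage marker sums given above, with Lyz2 as the largest term, were lower in the Nur77 line, as most phagocytosis genes were. Itgam belongs to both lists and was not called lower at any time. The part of the marker difference in these results was not tested.

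The members' changes were compared with those of other genes in the same stretch of chromosome 1, from 500 kb before Ly9 to 500 kb after Slamf8. Of 55 other genes there, 31 were tested, and 2 were called higher, 6 lower and 23 neither at 0 h, where 20.3% of all genes were called higher and 19.7% lower. The 2 became 1 without replicate 2 or 4 of the GFP line or replicate 1, 2 or 3 of the Nur77 line at 0 h. Their log2 fold changes at 0 h ran from -1.30 to 0.40 with a median of -0.09, whereas Cd84, Cd48, Slamf8 and Slamf9 lay outside that range and Ly9 inside it. At 1 h, 5 of the 31 were higher and 8 lower, where 26.4% and 24.8% of all genes were. Leaving out 1 library at a time gave 4 to 7 higher and 5 to 12 lower at 1 h, with 5 lower without replicate 4 of the GFP line at 1 h, and a fit of the compared groups alone gave 2 and 4. At 5 h, 4 were higher and 7 lower (5 to 10 with 1 library left out), where 22% and 24.4% of all genes were. The lowest fold change of the 31 at any time was -1.82 and the highest 0.72. The tested genes flanking the Ly9, Cd48 and Cd84 cluster were Alyref2, an RNA export factor gene, at -0.26 (adjusted p = 0.197) and Ncstn, the gene of the secretase subunit nicastrin, at -0.02 (adjusted p = 0.84). Pigm, which acts in the synthesis of lipid anchors such as that of CD48, lies before Slamf9 and was at 0.12 (adjusted p = 0.453). Tagln2, an actin-binding protein gene between Slamf9 and Slamf8, was lower at -0.25 (adjusted p = 0.0195). On the sides of Slamf8 were Vsig8, an immunoglobulin-like gene, at -1.30 (adjusted p = 0.000606), and Dusp23, a phosphatase gene, at -0.42 (adjusted p = 0.303). Among the other neighbours called at 0 h were B4galt3, a galactosyltransferase gene, at -0.34 and Fcer1g, the Fc receptor gamma chain gene, at -0.30.

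**Figure D4:**
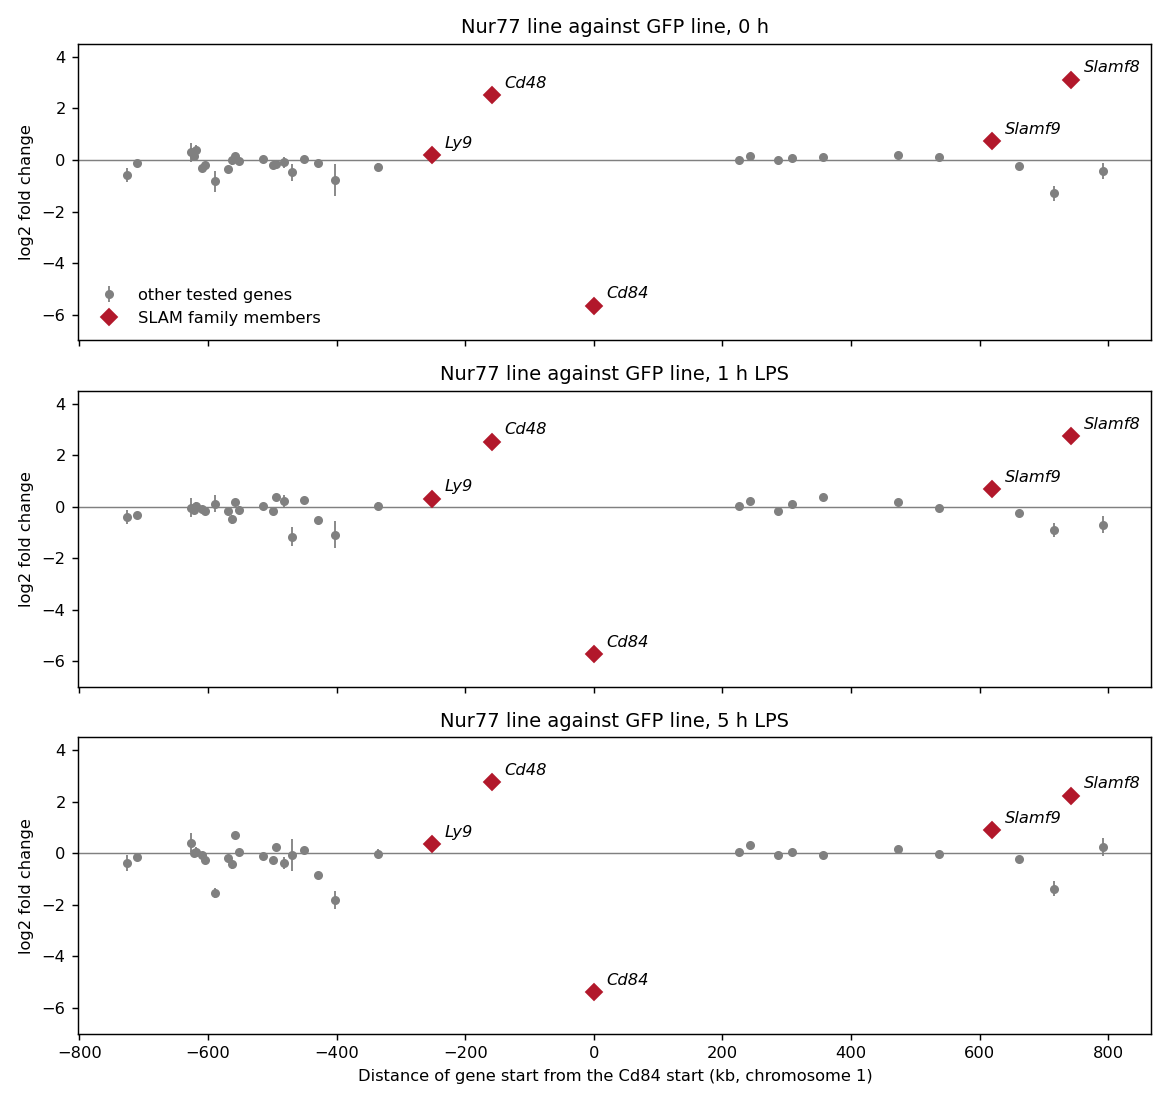
Log2 fold change between the Nur77 and GFP lines at 0, 1 and 5 h for the tested genes of the SLAM stretch of chromosome 1, by distance of the gene start from that of Cd84 (kb); diamonds are members, circles the 31 other genes, and error bars are SE (none is drawn for Cd84, which was not tested). Cd84 lies at -5.71 to -5.37, Cd48 and Slamf8 at 2.24 to 3.12, and the other genes between -1.82 and 0.72.

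Genes whose pattern was most like that of each member were found by the Pearson correlation of log2 CPM over the 24 libraries, among 10282 genes with at least 5 CPM in a group. All points share the 6 groups, and these are descriptions. Cyfip2, an actin regulator gene, at 0.991, Ctsd, cathepsin D, at 0.991 and Lgals3, galectin-3, at 0.990 were nearest to Cd84. Cyfip2 averaged 14.6 CPM in the Nur77 line and 100 CPM in the GFP line at 0 h. Antxr1, an anthrax toxin receptor gene, at 0.992, Zic5, a zinc finger factor gene, at 0.984 and Cd36, a scavenger receptor gene, at 0.984 were nearest to Cd48. Antxr1 averaged 57.5 CPM in the Nur77 line and 5.12 CPM in the GFP line at 0 h, and Cd36 averaged 988 CPM in the Nur77 line and 351 CPM in the GFP line. For Slamf8 they were Spry4 (0.968), Ostc (0.957) and Liph (0.956), for Ly9 Tmcc2 (0.982), Acsl5 (0.960) and Fnbp1 (0.948), and for Slamf9 Clec10a (0.908), Dapk1 (0.906) and Rps6ka1 (0.904). Clec10a, a macrophage lectin gene, averaged 257 CPM in the Nur77 line and 54.6 CPM in the GFP line at 0 h. Between members, the correlation was -0.98 for Cd48 with Cd84, -0.96 for Slamf8 with Cd84 and 0.93 for Slamf8 with Cd48.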

How the data were processed

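RNA libraries (KAPA mRNA HyperPrep, per the labels' protocols) from 24 samples in 6 groups of 4 were analysed. Per the submitters' processing notes, HISAT2 2.1.0 and CASAVA 1.8.2 were used with build mm10. The sources used here do not give the counting tool, strand setting or annotation, so reads of antisense genes cannot be told apart. The authors deposited estimated counts for 42361 RefSeq transcripts in steps of 0.5, not normalized. Of these, 42203 were matched to symbols through RefSeq (GRCm38.p6) and 65 through GENCODE; 93 kept their own identifiers. Isoforms of a gene can repeat each other's counts in the table, so only the isoform with the highest mean was kept per gene, which gave 25160 genes. The repeat was not always close: another Cd84 isoform had 196.5 counts against 1252.5 in replicate 1 of the GFP line at 0 h. The other Cd48 isoform had 178.5 against 267.5 in replicate 1 of the Nur77 line at 0 h. The Ly9 isoform kept is non-coding by its identifier, with 564.5 counts against 553 for a coding one in that GFP library. Estimated counts were rounded, filtered with filterByExpr and scaled by TMM (factors 0.896 to 1.14). All libraries entered a model of 6 group means in edgeR 4.0.16 in R 4.3.3 (glmQLFit, robust, 18 residual degrees of freedom, common biological coefficient of variation 0.0979), two-sided, with Benjamini-Hochberg adjustment over 12198 genes. The fitting step was tested on simulated counts. Line fold changes are Nur77 over GFP, and LPS fold changes LPS over 0 h.

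The members and the gene lists were chosen with earlier results of these data known. Named genes were all members, the 3 called genes with the smallest adjusted p of each list at 0 h, the family genes Slamf1, Slamf6, Cd244a and Cd2, the tested neighbours nearest each member, the 4 neighbours called at 0 h with the largest change, 3 genes most correlated with each member, and 2 genes on each side of Cd84 in rank. A gene that this rule names is not reported here. LPS changes of Cd84, planned as tests, are given as values only. Results were recomputed with size factors or the Wald test of DESeq2 1.42.0, without a filter, with at least 1 CPM required in 4 libraries, on the compared groups alone, with a replicate block, with the mean over transcripts, and without each library in turn. Protein sequences were not analysed here.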

Additional observations from a re-analysis of the deposited data

Results flagged for a closer look

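Of 36 sets of 4 libraries (6 members in 6 groups), 2 held a value far from the others, where chance alone gives about 1 in 20. Slamf7 had 0.456 CPM in replicate 4 of the Nur77 line at 5 h, against 0.0721 to 0.113 CPM in the other 3. Slamf9 had 8.5 CPM in replicate 2 of the Nur77 line at 5 h, against 6.74 to 7.0 CPM in the other 3. Slamf7 in that library was still below the lowest GFP library at 5 h, 0.594 CPM, and Slamf9 was called higher in the Nur77 line at 5 h under all alternatives, including without that library.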

How the results depend on the processing

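Of 784 values of members recomputed under alternatives, 742 kept their direction and, where tested, their call, 16 gained or lost the call, and 26 changed sign, none of them called in any setting, with sizes of at most 0.09 on the log2 scale. The calls of Cd48, Slamf8, Slamf9 and Ly9 between the lines held in all alternatives at all 3 times. The 16 were the Nur77 line's 5 h LPS response of Slamf8 (9 lost) and Cd48 (5 gained), its 1 h response of Ly9 (1 gained) and the 5 h difference of Slamf8 (1 gained). With 1 library left out, values that changed sign ran from -0.26 to 0.00 (Slamf9) for the 1 h LPS response of the Nur77 line. They ran from -0.04 to 0.03 (Ly9), -0.17 to 0.04 (Slamf9) and -0.09 to 0.56 (Slamf8) for that of the GFP line, and from -0.11 to 0.07 (Cd48) for its 5 h response. For the 1 h difference between the lines they ran from -0.09 to 0.07 (Cd48) and -0.19 to 0.07 (Slamf9). That of Cd48 was also 0.07 with the mean over transcripts and 0.02 with the DESeq2 Wald test, and the 1 h GFP response of Ly9 was 0.01 with the Wald test, with DESeq2 size factors and on the compared groups alone. Leaving out each library in turn gave 0 to 1 members called for the 1 h LPS response of the Nur77 line, 1 to 3 for its 5 h response, where 2 were called with all libraries, and 0 to 1 for the 5 h difference between the lines. Without a filter, or with 1 CPM required in 4 libraries, 1 was called for the 5 h response of the Nur77 line. The cause was not tested. For Slamf8 at 1 h in the GFP line, the fit of the compared groups alone gave no value, since the filter removed it. Fits of the compared groups alone called 2 of the SLAM tail adaptors higher at 1 h, against 6 in the fit of all groups. With replicate numbers as a block, 4 members were called between the lines at 0 h, as without it, and no member's call changed; of the neighbours, 1 was called higher at 0 h with the block and 2 without it. Correlations of same-numbered deviations from the group means were -0.27 to 0.17. Between the lines at 0 h they were -0.01 to 0.17, and 2 libraries matched their own number best. Whether the numbers pair the samples cannot be told from these values. Slamf7 and Slamf8 in the GFP line rest on few counts, which limits their precision.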
